A study of Mus musculus with 24 samples.

Results

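Hindleg skeletal muscle of newborn mice whose mothers ate a low protein diet and drank taurine (LPtau) was compared with muscle of newborns whose mothers ate a normal protein diet and drank plain water (NP). The question was what still differed from control muscle when taurine was added to the low protein diet. The comparison took all arrays that the labels give to these groups, 3 LPtau and 3 NP, which are 6 of the 24 arrays of the series and 6 of its 12 muscle arrays. The other 18 arrays are of muscle from the remaining diets and of liver. All animals had the genotype C57BL/6 and were taken at day 0 after birth, and diets began on day 1 of pregnancy and ended at birth. The NP diet held 20% casein with no taurine. The LPtau diet held 8% casein, with 1% taurine in the drinking water. Muscle of newborns from low protein without taurine (LP, 8% casein) and from normal protein with 1% taurine (NPtau, 20% casein), 3 arrays each, is given where it bears on the comparison. The labels call the samples of a group biological replicates and state neither the mothers nor the litters, so the p-values below refer to the variation among these pups alone. If pups of a group shared a litter, the diet and the litter cannot be told apart.

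Fetal muscle is built from fibres that fuse from dividing precursors, and around birth these fibres exchange embryonic and neonatal myosins for adult slow and fast forms. When amino acids are short, cells slow translation and use the transcription factor ATF4 to switch on genes for amino acid synthesis, amino acid import, mitochondrial one-carbon metabolism and aminoacyl-tRNA synthetases. Taurine is an amino sulfonic acid that is not built into protein, and mature skeletal muscle holds much of it.

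The muscle values are log2 expression per probe set on single-channel Affymetrix arrays, with a median per array of 4.95 to 5.04. 1 probe set was used per gene, which gave 18193 genes. The tissue label was checked against 10 muscle fibre markers, among them the embryonic and neonatal myosins Myh3 and Myh8, and their mean log2 level was 13.6 to 13.7 in the NP arrays and 13.2 to 13.8 in the LPtau arrays. The array of LPtau replicate 1 stood apart, with a score of -61.3 on the second principal component of the 12 muscle arrays (22.7% of the variance) and an array weight of 0.17, against scores of -7.79 to 28.5 for the other 11. LP replicate 1 stood apart on the first component (31.3% of the variance), at -73.8. The main values that rest on LPtau replicate 1 are therefore also given without it. By the level of Xist, replicate 2 of NP and replicate 2 of LPtau were female and the others of these groups male.

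No gene passed the threshold of a Benjamini-Hochberg adjusted p under 0.05 in LPtau against NP with limma. The count was 0 of 18193 genes (0%), and the smallest adjusted p was 0.84. At an unadjusted p under 0.05 there were 682 genes (3.75%), of which 289 were higher (1.59%) and 393 lower in LPtau (2.16%). Chance alone gives on average 5% at that level. The 3 LPtau values lay wholly above the 3 NP values for 931 genes (5.12%) and wholly below for 987 genes (5.43%). The difference was positive for 49.5% of genes and negative for 50.5%, with a median of -0.00 log2, and exceeded 1 log2 unit in either direction for 87 genes. The count of adjusted calls stayed at 0 in all 21 alternative analyses, while the count at an unadjusted p under 0.05 was 274 without LPtau replicate 1, 1241 without LPtau replicate 2 and 1855 without LPtau replicate 3. It was 310 without NP replicate 2 and 393 without NP replicate 3. The genes described next are those of smallest p whose LPtau and NP values do not overlap, together with fixed groups of genes. Since they were picked for their p or their known role, each gene's difference is given as a value with its standard error, and not as a call.

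**Figure D1:**
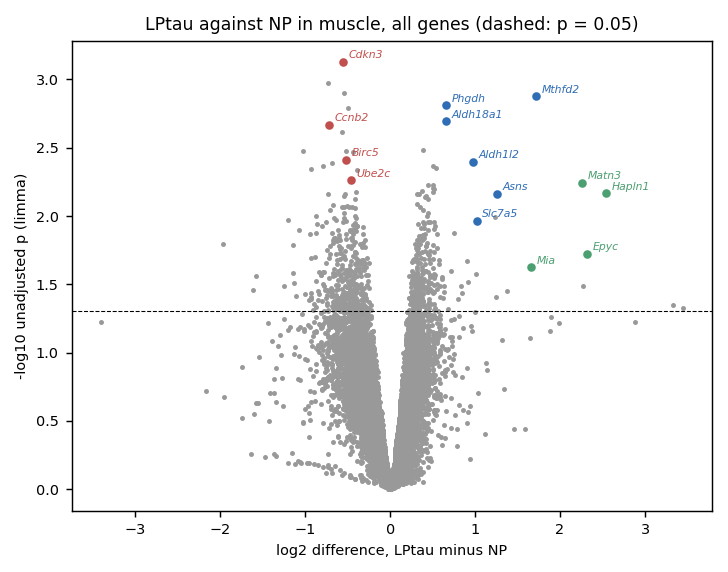
Each point is 1 of 18193 genes, with the log2 difference of LPtau from NP on the x axis and the negative log10 of limma's unadjusted p on the y axis, where a dashed line marks the level of 0.05. Named points are amino acid and one-carbon genes (blue), mitosis genes (red) and cartilage genes (green), and none of the 18193 genes passed an adjusted p of 0.05.

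Of the 15 genes of smallest p in the higher direction without overlap, 5 were enzymes of amino acid synthesis or mitochondrial one-carbon metabolism, a grouping made after the values were seen, and 3 of the 5 belong to the list given below. The largest difference of the 5 was that of Mthfd2, a mitochondrial enzyme of the folate cycle. Its log2 levels were 7.30, 6.52 and 7.12 in NP and 9.10, 9.28 and 7.73 in LPtau. The groups did not overlap, and LPtau replicate 3 lay nearest to NP. The difference was 1.72 ± 0.40 (SE), or 3.3-fold, with an unadjusted p of 0.00133 and an adjusted p of 0.84 in limma. Asns, which makes asparagine, stood at 10.08, 9.48 and 9.49 in NP and at 10.98, 11.51 and 10.34 in LPtau, a difference of 1.26 ± 0.38. Aldh1l2, the mitochondrial formyltetrahydrofolate dehydrogenase, was at 7.82, 7.98 and 7.75 in NP and 8.87, 9.16 and 8.48 in LPtau, a difference of 0.98 ± 0.27. For each of these 3 genes LPtau replicate 3 was the lowest of its group and still above every NP array.

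Phgdh, the first enzyme of serine synthesis, read 8.94, 8.74 and 8.75 in NP and 9.47, 9.78 and 9.16 in LPtau, a difference of 0.66 ± 0.16, and its 4 probe sets had the same sign. Aldh18a1, which makes the precursor of proline, differed by 0.66 ± 0.16, with 5 of 5 probe sets of that sign. Slc7a5, the light chain of a plasma membrane importer of large neutral amino acids, was at 8.24, 7.65 and 7.75 in NP and 8.79, 9.46 and 8.45 in LPtau, a difference of 1.02 ± 0.33. The groups were separate for all 3 genes. Leaving out LPtau replicate 1 gave 1.52 for Mthfd2, 1.24 for Asns, 0.96 for Aldh1l2, 0.66 for Phgdh, 0.65 for Aldh18a1 and 1.08 for Slc7a5. The differences of these 6 genes therefore did not rest on the array that stood apart.

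Of 28 genes listed for the amino acid response and tRNA synthetases, 27 were measured. The median difference over the 27 was 0.24 log2, against -0.00 over all genes, and 23 of them were positive, against 49.5% of all genes. 6 had an unadjusted p under 0.05 in the higher direction (background 1.59%) and 0 in the lower direction (2.16%), and 4 lay wholly above NP (5.12%), while 0 passed the adjusted threshold. Without LPtau replicate 1 the median was 0.42, with 25 positive. Averaged over the list and set against the NP mean, the LPtau arrays stood at 0.13, 0.68 and 0.22, and the NP arrays at 0.20, -0.13 and -0.07. The list as a whole overlapped with NP, because NP replicate 1 lay above LPtau replicate 1. The other 2 of the 6 genes, chosen here after their values were seen, were Fgf21, a hormone that muscle and liver release under nutrient stress, at 0.33 ± 0.14, and Vldlr, a lipoprotein receptor, at 0.80 ± 0.34, and both overlapped with NP. Vldlr rested mostly on LPtau replicate 1, at 11.15 against 9.94 and 9.43 in replicates 2 and 3, and its difference was 0.31 without that array.

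Other genes known from the amino acid response, chosen after their values were seen, overlapped with NP. Atf4 mRNA, whose protein is mainly set by translation, was at -0.45 ± 0.26, and at -0.09 without LPtau replicate 1. Psat1, the second enzyme of serine synthesis, was at 0.45 ± 0.33, with LPtau replicate 1 at 8.55 below every NP array and replicate 2 at 10.24 above. The stress genes Ddit3 and Trib3 were at 0.36 ± 0.31 and 0.22 ± 0.20, and Chac1, a glutathione-degrading enzyme, at -0.31 ± 0.36. Gpt2, a mitochondrial alanine aminotransferase listed with amino acid transport and branched-chain breakdown, was at 0.55 ± 0.23, while that list of 19 genes had a median of -0.13 with 5 positive.

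The LP arrays were lower than the LPtau arrays for the leading genes of this group. Mthfd2 read 6.74, 7.02 and 6.62 in LP, Asns 8.87, 9.90 and 9.50, and Aldh1l2 7.51, 8.04 and 7.11, so that no LP array reached the lowest LPtau array for these 3 genes. LPtau against LP gave 1.91 ± 0.40 for Mthfd2 (limma, adjusted p = 0.14), 1.52 ± 0.38 for Asns (adjusted p = 0.162) and 1.28 ± 0.27 for Aldh1l2 (adjusted p = 0.14). Phgdh and Slc7a5 were different in this respect, with LP values of 9.39, 9.14 and 9.10, and of 8.10, 8.43 and 9.21, that overlapped with LPtau. In NPtau Mthfd2 ranged from 7.03 to 8.22 and Asns from 9.36 to 10.62, which overlapped with both NP and LPtau. LPtau against LP shares the LPtau arrays with LPtau against NP, so these differences are not independent of each other.

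**Figure D2:**
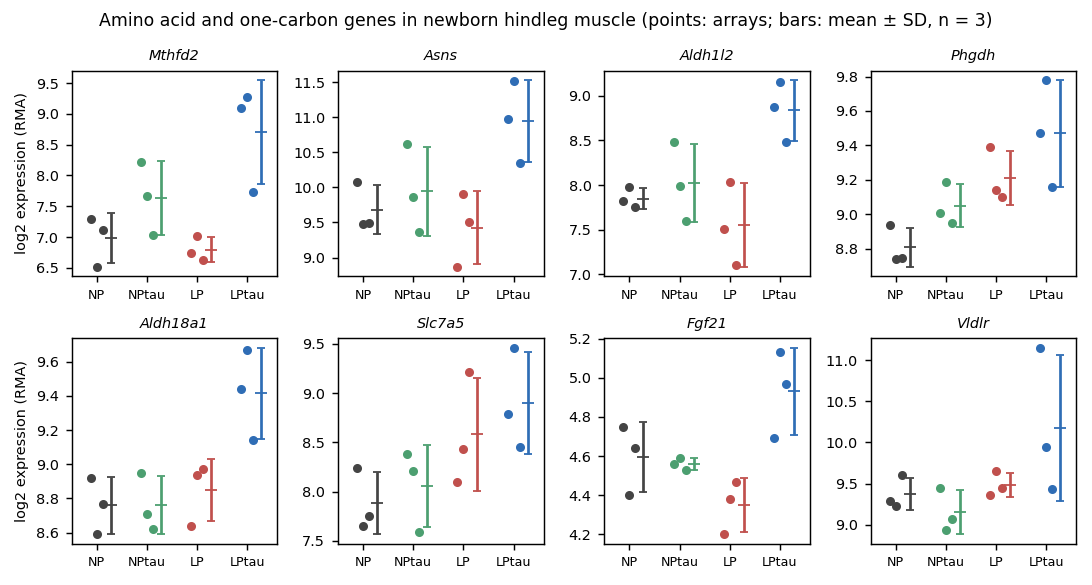
Log2 expression of 8 genes in each muscle array by maternal diet, with the mean and SD (n = 3) beside the points. Mthfd2, Asns, Aldh1l2, Phgdh, Aldh18a1 and Slc7a5 have all 3 LPtau arrays above all 3 NP arrays, while Fgf21 and Vldlr overlap.

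The promoters of this group were searched on both strands for TGATGNAA, the core of the C/EBP-ATF composite element through which ATF4 acts. The motif and the genes shown were chosen after the expression values were seen. In the 250 bases before the gene start, 1134 of 32851 RefSeq promoters of mouse (GRCm38.p6) held it, which is 3.45%. Of the 27 measured list members 22 had a promoter in the table, and 7 of these held a match. The 3.45% counts promoter entries, while a list gene was counted if any of its entries held a match. The shares are therefore not in the same unit. Asns and Fgf21 are shown because they hold a match in their only promoter entry and stood higher in LPtau. Vldlr held a match in 1 of its 2 promoter entries and is not shown. The promoter of Asns is chr6:7693210-7693459 on the minus strand and that of Fgf21 chr7:45615491-45615740 on the minus strand, written 5' to 3' along the gene with the match in capitals.
Asns: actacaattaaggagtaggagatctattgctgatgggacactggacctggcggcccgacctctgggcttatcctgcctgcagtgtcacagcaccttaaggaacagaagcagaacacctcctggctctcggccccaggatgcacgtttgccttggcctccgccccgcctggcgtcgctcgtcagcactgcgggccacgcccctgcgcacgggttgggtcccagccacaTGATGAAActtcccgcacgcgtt
Fgf21: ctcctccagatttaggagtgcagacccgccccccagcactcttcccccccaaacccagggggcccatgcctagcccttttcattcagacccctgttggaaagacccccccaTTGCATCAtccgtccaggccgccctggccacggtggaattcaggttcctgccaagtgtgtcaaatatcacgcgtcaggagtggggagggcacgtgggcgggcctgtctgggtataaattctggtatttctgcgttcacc
The match began 23 bases before the start of Asns on the gene's strand and 139 bases before that of Fgf21 on the opposite strand. Mthfd2, Phgdh and Aldh18a1 held no match in this window, and Aldh1l2 and Slc7a5 had no promoter in the table. A match describes the sequence and is no evidence of binding.

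Genes that act in mitosis stood lower in LPtau than in NP. Ccnb2, a B-type cyclin, read 8.87, 8.86 and 9.11 in NP and 7.82, 8.29 and 8.58 in LPtau, a difference of -0.72 ± 0.18, or 0.609 times the NP level. Cdkn3, a phosphatase of cyclin-dependent kinases, read 6.14, 6.15 and 6.23 in NP and 5.81, 5.45 and 5.57 in LPtau, a difference of -0.56 ± 0.12. It had the smallest p of all genes that could be named, 0.000746 before adjustment and 0.84 after it in limma. Birc5 (survivin, of the chromosomal passenger complex) was at 8.67, 8.64 and 8.58 in NP and 7.80, 8.21 and 8.32 in LPtau, a difference of -0.52 ± 0.14. Ube2c, the ubiquitin-conjugating enzyme of the anaphase-promoting complex, was at 9.61, 9.49 and 9.75 in NP and 8.97, 9.18 and 9.31 in LPtau, a difference of -0.46 ± 0.13. Every LPtau array lay below every NP array for these 4 genes, as it did for the centromeric histone Cenpa (-0.41 ± 0.13) and the proliferation marker Mki67 (-0.55 ± 0.18). For Cenpa 2 of 3 probe sets had this sign, and its difference ran from -0.52 to -0.16 over the alternatives.

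Of 38 genes listed for the cell cycle and DNA replication, 36 were measured, and Ccnb2, Birc5, Cenpa and Mki67 are among them. The median difference was -0.29, with 5 of 36 positive. 12 had an unadjusted p under 0.05 in the lower direction (background 2.16%), 0 in the higher, and 14 lay wholly below NP (5.43%), while 0 passed the adjusted threshold. Besides the 4 named, the 12 held Cdk1 (-0.39), the spindle genes Tpx2 (-0.88), Aurka (-0.85), Plk1 (-0.66), Cenpe (-0.63) and Prc1 (-0.58), the topoisomerase Top2a (-0.64) and the replication helicase subunit Mcm7 (-0.47). The other replication genes, picked out after their values were seen, had p above 0.05 and differences from -0.48 (Mcm6) to 0.20 (Rrm2), with Pcna at -0.28, Mcm4 at -0.27, Rrm1 at -0.20, Mcm5 at -0.16, Mcm3 at -0.07 and Mcm2 at 0.07. The cyclins of the start of replication, Ccne1 and Ccne2, were at 0.39 ± 0.33 and 0.41 ± 0.27. In bulk RNA fewer dividing cells and less RNA per dividing cell cannot be told apart.

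The size of the shift rested in part on LPtau replicate 1. Averaged over the list, the LPtau arrays stood at -0.67, -0.12 and -0.13 against the NP mean, and the NP arrays at -0.05, -0.09 and 0.14. Without LPtau replicate 1 the median over the 36 genes was -0.15, with 12 positive. For single genes the difference without that array was -0.51 for Ccnb2, -0.66 for Cdkn3, -0.37 for Birc5, -0.37 for Ube2c, -0.28 for Cenpa and -0.35 for Mki67. In LP some of the mitosis genes read as in LPtau, with 8.38, 8.37 and 8.09 for Ccnb2 and 5.46, 5.58 and 5.57 for Cdkn3, while Mki67, at 10.01, 9.70 and 10.21, overlapped with NP. LPtau against LP was -0.05 ± 0.18 for Ccnb2 and 0.07 ± 0.12 for Cdkn3, with adjusted p of 0.914 and 0.80 in limma. LP against NP was -0.67 for Ccnb2 and -0.64 for Cdkn3 (adjusted p = 0.17 and 0.0767), -0.51 for Ube2c, -0.38 for Cenpa, -0.36 for Birc5 and -0.12 for Mki67, a comparison that shares the NP arrays with LPtau against NP. The median of the whole list in LP against NP was -0.06.

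**Figure D3:**
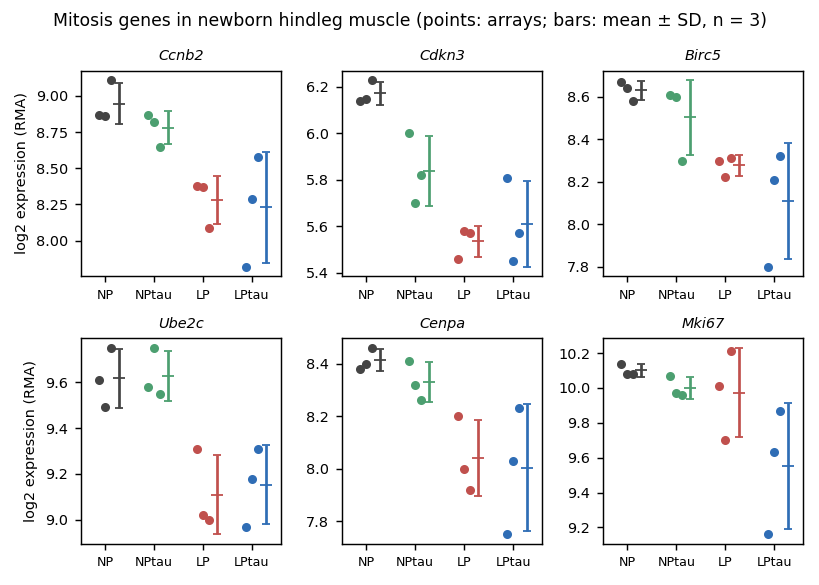
Log2 expression of 6 mitosis genes in each muscle array by maternal diet, with the mean and SD (n = 3) beside the points. All 3 LPtau arrays lie below all 3 NP arrays for each gene, and LPtau replicate 1 is the lowest LPtau array for Ccnb2, Birc5, Ube2c, Cenpa and Mki67 but not for Cdkn3.

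Promoters of mitotic genes are known for CCAAT boxes, which bind the factor NF-Y, so CCAAT was counted on both strands in the same 250-base window. The motif and the genes were again chosen after the values were seen. It occurred in 33.85% of the 32851 promoters, and at least 2 matches in 10.09%. Of the 36 measured list members 27 had a promoter in the table, of which 22 held a match and 14 held at least 2. Here too a list gene was counted by any of its promoter entries, and the background by entry. The 3 genes shown are those of the 4 leading mitosis genes that hold a match, with 3 or more each, while Birc5 held 0. They lie at chr9:70421555-70421804 on the minus strand (Ccnb2), chr14:46760291-46760540 on the plus strand (Cdkn3) and chr2:164769679-164769928 on the plus strand (Ube2c), in the RefSeq table of GRCm38.p6. Capitals mark CCAAT or its reverse complement ATTGG.
Ccnb2: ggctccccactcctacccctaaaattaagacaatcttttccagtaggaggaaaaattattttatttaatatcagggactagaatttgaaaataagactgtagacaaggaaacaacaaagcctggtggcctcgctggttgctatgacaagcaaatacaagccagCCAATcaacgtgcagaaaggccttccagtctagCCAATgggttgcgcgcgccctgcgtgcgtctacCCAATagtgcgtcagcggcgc
Cdkn3: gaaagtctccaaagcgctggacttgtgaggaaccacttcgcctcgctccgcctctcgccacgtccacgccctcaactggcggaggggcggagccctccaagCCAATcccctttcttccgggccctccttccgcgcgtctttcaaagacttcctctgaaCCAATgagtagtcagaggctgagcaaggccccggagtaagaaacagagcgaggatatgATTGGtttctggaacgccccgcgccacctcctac
Ube2c: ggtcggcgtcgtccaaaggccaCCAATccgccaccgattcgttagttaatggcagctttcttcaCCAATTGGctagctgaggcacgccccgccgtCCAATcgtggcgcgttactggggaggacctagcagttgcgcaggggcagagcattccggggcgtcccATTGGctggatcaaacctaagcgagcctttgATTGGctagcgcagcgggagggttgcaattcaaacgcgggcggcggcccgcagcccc
The counts are 3 in Ccnb2, 3 in Cdkn3 and 6 in Ube2c, and 2 of those in Ube2c overlap on opposite strands. The matches of Ccnb2 began 87, 54 and 21 bases before its start.

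Fast fibre genes, which were far lower in LP, lay nearer to NP in LPtau. For the 3 genes given first, no LPtau value fell within the NP range. Mybpc2, the fast myosin-binding protein, read 10.82, 10.75 and 10.72 in NP, 6.23, 6.78 and 5.79 in LP, and 9.26, 9.55 and 10.97 in LPtau. Pvalb, the calcium buffer parvalbumin, read 9.64, 9.48 and 9.17 in NP, 4.91, 6.01 and 4.93 in LP, and 8.49, 8.34 and 9.01 in LPtau. Actn3, the fast alpha-actinin, read 12.22, 12.15 and 12.17 in NP, 8.52, 10.01 and 9.07 in LP, and 10.96, 11.37 and 12.06 in LPtau. Each LPtau array of the 3 genes was above all LP arrays, and all but Mybpc2 in replicate 3 were below all NP arrays. LPtau against NP was -0.83 ± 0.40 for Mybpc2, -0.81 ± 0.32 for Pvalb and -0.71 ± 0.37 for Actn3 (limma, adjusted p = 0.84 for each). Their 95% intervals were -1.72 to 0.05, -1.52 to -0.11 and -1.52 to 0.09, so a remaining deficit of more than 1 log2 unit is within them. Without LPtau replicate 1 the differences were -0.50, -0.75 and -0.46.

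Of 22 fast fibre genes, 20 were negative in LPtau, with a median of -0.15, but the median was 0.05 with 15 positive when LPtau replicate 1 was left out. 2 had an unadjusted p under 0.05 in the lower direction (background 2.16%), Pvalb and Myh4, and 3 lay wholly below NP (5.43%). The list mean was -0.61, -0.14 and 0.01 in the LPtau arrays, -1.71, -0.86 and -1.27 in the LP arrays, and 0.02, 0.06 and -0.08 in the NP arrays. Myh4, the fastest adult myosin, read 8.63, 7.31 and 7.48 in NP, 5.89, 6.86 and 7.22 in LPtau, and 5.37, 6.17 and 6.07 in LP, a difference of -1.15 ± 0.41 from NP and of -0.77 without LPtau replicate 1. The adult myosins Myh1 and Myh2 were at 0.05 ± 0.36 and -0.02 ± 0.46, the slow myosin Myh7 at 0.15 ± 0.31, and the embryonic and neonatal myosins Myh3 and Myh8 at -0.23 ± 0.20 and -0.16 ± 0.24. The sign of Myh1, Myh2, Myh7 and Myh8 turned in some alternatives. The 10 muscle fibre markers had a median of -0.13, and of 0.05 without LPtau replicate 1.

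The 23 genes past the threshold in LP against NP (0.126% of 18193, 19 lower and 4 higher) were followed into LPtau. The number of such genes depended on the arrays and the fit: it was 3 without NP replicate 1, 2 without NP replicate 2, 2 without NP replicate 3, 12 without LP replicate 3, 8 without LPtau replicate 2, 49 and 126 without LP replicates 1 and 2, 91 without LPtau replicate 1, 5 with sex as a covariate and 2 with the replicate block. The 23 were picked for their distance from the same NP arrays, so what follows is a description. Their median absolute difference from NP was 1.17 in LP and 0.27 in LPtau, where it was 0.142 over all genes. In 15 of the 23 the LPtau values overlapped with NP, and in 8 they did not, against 10.5% of all genes without overlap. The 8 that did not were Pvalb, Actn3, the potassium channel Kcna5 (-0.58 ± 0.26), the lipoyltransferase Lipt1 (-0.50 ± 0.18), Frat2 (-0.44 ± 0.12), which acts in Wnt signalling, Pacsin3 (-0.39 ± 0.18), Tspan15 (-0.27 ± 0.10) and the splicing regulator Mbnl3 (0.28 ± 0.10). 1 of 3 probe sets had the stated sign for Lipt1 and 1 of 3 for Mbnl3, so the sign of these genes depends on the probe set. Frat2 shows the pattern of a partial difference, with 7.04, 6.98 and 6.87 in NP, 6.52, 6.31 and 6.73 in LPtau and 6.14, 6.25 and 6.17 in LP.

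Others of the 23 lay at the NP level. Mylip, a ubiquitin ligase of lipoprotein receptors, read 8.74, 8.54 and 8.54 in NP, 8.50, 8.59 and 8.55 in LPtau and 9.35, 9.42 and 9.34 in LP. Gli1, a target and effector of hedgehog signalling, read 6.14, 6.41 and 6.11 in NP, 6.31, 6.27 and 6.44 in LPtau and 7.63, 7.37 and 8.14 in LP. Cox7a1, the muscle isoform of a cytochrome c oxidase subunit, read 9.26, 9.48 and 9.88 in NP, 9.93, 9.44 and 9.85 in LPtau and 7.23, 7.77 and 6.80 in LP. LPtau differed from NP by -0.06 ± 0.10, 0.13 ± 0.19 and 0.20 ± 0.28 for these genes, with 95% intervals of -0.28 to 0.15, -0.29 to 0.54 and -0.41 to 0.81. Abra, an activator of actin and serum response factor signalling, was less even, at 7.85, 6.90 and 8.86 in LPtau against 8.97, 8.09 and 8.93 in NP.

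LPtau against LP was tested directly, and 4 of 18193 genes passed (0.022%), with 2345 at an unadjusted p under 0.05 (12.9%). Mybpc2 (3.66 ± 0.40, adjusted p = 0.0143), Pvalb (3.33 ± 0.32, adjusted p = 0.00913) and Cox7a1 (2.47 ± 0.28, adjusted p = 0.0143) were higher in LPtau, and Mylip was lower (-0.83 ± 0.10, adjusted p = 0.0179), by limma. All 4 calls were lost without LP replicate 3, and the count was 75 without LP replicate 2, 14 without LP replicate 1, 9 without LPtau replicate 1 and 2 without LPtau replicate 3. The replicate number as a block also gave 0 calls, and array weights gave 281. The difference of the 4 genes kept its direction in all 19 settings, from 3.14 to 4.0 for Mybpc2, 3.13 to 3.70 for Pvalb, 2.24 to 2.72 for Cox7a1 and -0.85 to -0.72 for Mylip.

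**Figure D4:**
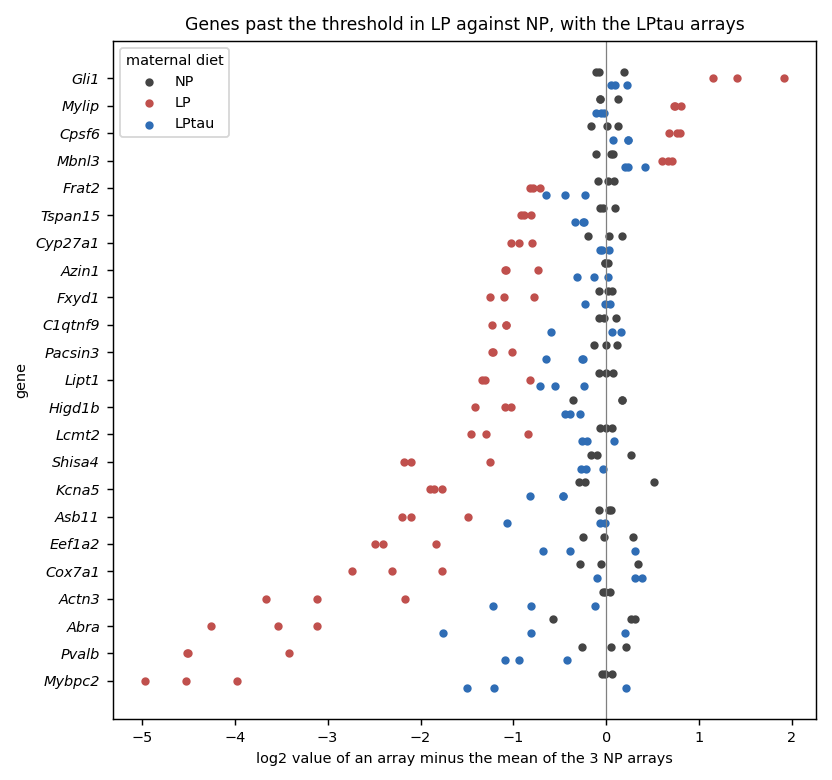
Log2 value of each NP, LP and LPtau muscle array minus the mean of the 3 NP arrays, for the 23 genes past an adjusted p of 0.05 in LP against NP. The LPtau points lie nearer to the NP points than the LP points do, and 8 of the 23 genes have all LPtau points outside the range of NP.

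Fuel genes gave a mixed picture. Pdk4, a kinase that restrains pyruvate oxidation, read 10.18, 11.09 and 10.67 in NP, 8.76, 8.20 and 10.23 in LPtau and 7.83, 7.90 and 7.16 in LP, a difference of -1.58 ± 0.62 between LPtau and NP (limma, unadjusted p = 0.0274, adjusted p = 0.84). LPtau replicate 3 overlapped with NP and the other LPtau arrays lay between NP and LP. Cpt1a, which admits fatty acids to mitochondria, was at -1.0 ± 0.42, and at -0.66 without LPtau replicate 1. The list of fatty acid uptake and oxidation (27 genes) had a median of -0.22, and -0.07 without that array, and that of the citrate cycle and pyruvate oxidation (23 genes) -0.19, and 0.07 without it. The respiratory chain lay at the NP level, with medians of 0.05 for 34 complex I genes, 0.04 for 15 genes of complexes II and III, 0.10 for 20 complex IV genes and -0.06 for 18 ATP synthase genes. The same lists had medians of -0.51, -0.52, -0.38 and -0.31 in LP against NP. Within complex IV the adult muscle subunit Cox8b was at 0.91 ± 0.37 and the assembly factor Surf1 at -0.42 ± 0.13, and Cox8b was at 0.39 without LPtau replicate 1, where it read 13.24. Ppargc1a, a coactivator of mitochondrial genes, was at 0.65 ± 0.78, and at 0.28 without LPtau replicate 1, with NP values of 8.43, 7.11 and 9.32 that span most of the LPtau range.

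The taurine transporter and the enzymes that make hypotaurine overlapped between the groups, while 3 other genes of sulfur metabolism lay below NP. Slc6a6, the taurine transporter, read 9.40, 9.16 and 9.48 in NP, 9.61, 9.24 and 9.21 in LPtau and 10.10, 9.75 and 9.83 in LP. The difference between LPtau and NP was 0.01 ± 0.19 (95% interval -0.41 to 0.42), its sign turned in some alternatives, and 2 of 4 probe sets had it. Csad and Cdo1, the enzymes that make hypotaurine from cysteine, were at -0.46 ± 0.33 and -0.91 ± 0.59, and at -0.21 and -0.40 without LPtau replicate 1. Fmo1, a flavin monooxygenase that can oxidise hypotaurine to taurine, read 9.29, 9.12 and 9.23 in NP and 8.30, 8.59 and 8.98 in LPtau, a difference of -0.59 ± 0.20 with no overlap. Sqor, which oxidises hydrogen sulfide (-0.70 ± 0.36), and Gclm, of glutathione synthesis (-0.27 ± 0.29), both named after their values were seen, also lay wholly below NP, which makes 3 of the 18 measured genes of taurine and sulfur amino acid metabolism (background 5.43%). The list had a median of -0.13 with 7 positive, and of -0.02 with 9 positive without LPtau replicate 1.

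Growth factor genes of the insulin-like axis were near the NP level. Igf2 was at -0.07 ± 0.13, its receptor gene Igf1r at -0.09 ± 0.22 and Igf1 at -0.36 ± 0.23. Igf1 read 11.69, 11.67 and 11.60 in NP and 10.82, 11.51 and 11.55 in LPtau, so the groups did not overlap, but the difference was -0.12 without LPtau replicate 1. The 17 genes of the axis had a median of -0.10, and of -0.02 without that array.

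Markers of some other cell types differed between the groups, most of all those of cartilage. The lists of satellite cells, bone and tendon had medians of 0.05, 0.06 and 0.08. All 18 chondrocyte genes were higher in LPtau, with a median of 1.89 (1.79 without LPtau replicate 1), 7 at an unadjusted p under 0.05 (background 1.59%) and 14 wholly above NP (5.12%). Their mean log2 level was 5.18 to 6.30 in NP and 7.55 to 7.94 in LPtau. Hapln1, which links aggrecan to hyaluronan, read 4.39, 5.96 and 5.59 in NP and 8.69, 7.41 and 7.45 in LPtau, a difference of 2.54 ± 0.76, and the matrilin Matn3 read 4.12, 4.27 and 4.75 in NP and 6.86, 6.91 and 6.13 in LPtau, a difference of 2.26 ± 0.66. Col2a1, the main cartilage collagen, read 7.29, 9.61 and 10.25 in NP and 11.59, 12.61 and 11.58 in LPtau. Relative to NP the list stood at 2.68 and 2.75 in LP replicates 1 and 2 and at -0.75 in LP replicate 3, and at -0.31, 0.88 and -0.58 in NPtau. LP replicates 1 and 2, whose cartilage genes were as high as those of LPtau, read 6.74 and 7.02 for Mthfd2 and 8.87 and 9.90 for Asns, which is below all LPtau arrays. These 2 LP arrays also differ from LPtau in diet, and LP replicate 1 stood apart from the other muscle arrays. The values are therefore a description, and the part of cartilage RNA in the other differences was not tested.

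Adipocyte genes leaned the other way. Adipoq, the fat hormone adiponectin, read 10.74, 11.98 and 11.26 in NP and 6.02, 6.22 and 11.53 in LPtau, and the 10 adipocyte genes had a median of -1.36 (-0.84 without LPtau replicate 1) and list means of -1.90, -1.77 and 0.09 in the LPtau arrays. In NPtau the list means ran from -1.61 to 1.71, so single arrays within a diet differed by more than the groups. Keratinocyte genes, a sign of skin in the dissected tissue, ranged from -2.09 to 2.07 within LPtau and from -2.08 to 1.19 within NP. The part of these tissues in the results was not tested.

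Genes of macrophages, vessels and matrix were mostly lower in LPtau. Cd163, a haemoglobin scavenger receptor of tissue macrophages, read 6.70, 6.59 and 6.69 in NP and 5.42, 5.65 and 6.13 in LPtau, a difference of -0.93 ± 0.26. The mannose receptor Mrc1 was at -0.72 ± 0.26, and at -0.38 without LPtau replicate 1. Its groups were separate by a narrow margin, with a highest LPtau value of 8.85 and a lowest NP value of 8.86. Of 16 macrophage genes 13 were negative, 4 at an unadjusted p under 0.05 in the lower direction (background 2.16%), with a median of -0.26, and -0.28 without LPtau replicate 1. The general macrophage markers Csf1r and Adgre1, named after their values were seen, were at 0.08 ± 0.24 and 0.19 ± 0.13. Of 16 endothelial genes 14 were negative, 4 at an unadjusted p under 0.05, with a median of -0.41 (-0.23 without LPtau replicate 1). They included the transcription factor Sox17 (-0.52 ± 0.18), at 7.11, 7.31 and 7.72 in NP and 6.85, 6.76 and 6.97 in LPtau, and the adhesion molecule Esam (-0.68 ± 0.27, and -0.45 without LPtau replicate 1). Vegfd, a growth factor of lymphatic vessels, read 7.03, 6.54 and 6.50 in NP and 5.76, 5.91 and 6.34 in LPtau, a difference of -0.69 ± 0.19. All 26 fibroblast and matrix genes were negative, with a median of -0.31, but the median was -0.13 with 3 positive without LPtau replicate 1, and 1 had an unadjusted p under 0.05. Adipocyte and cartilage genes moved in the same arrays, and their part in these differences was not tested.

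**Figure D5:**
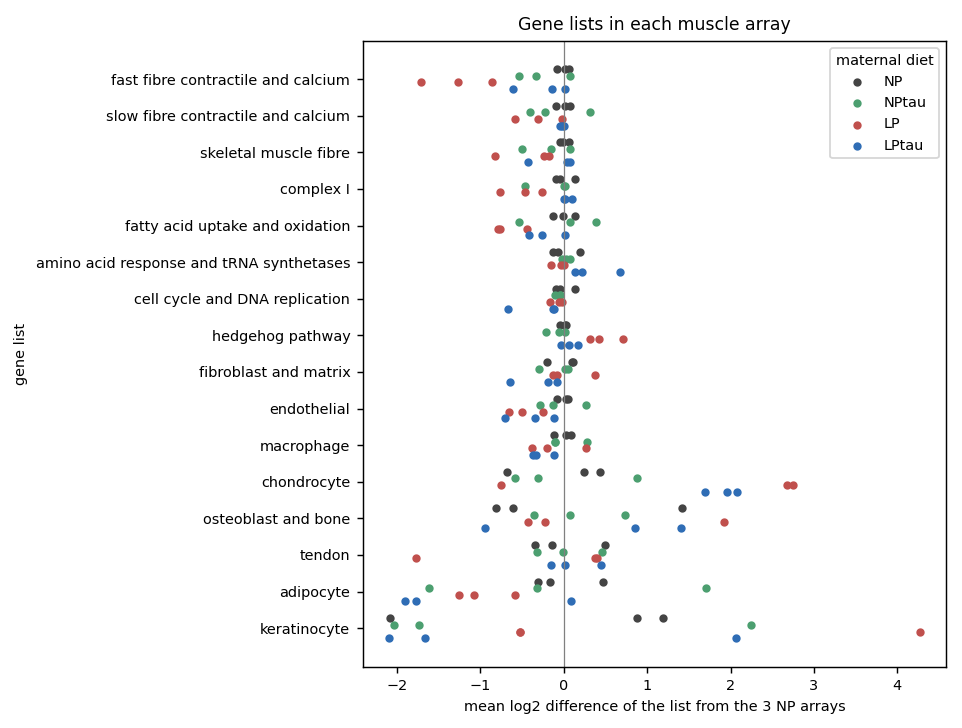
Mean log2 difference of 16 gene lists from the 3 NP arrays, with 1 point for each of the 12 muscle arrays, coloured by maternal diet. The chondrocyte list is at 1.69 to 2.08 in LPtau, the fast fibre list is lowest in LP, and the keratinocyte list scatters widely within every diet, the adipocyte list within NPtau and LPtau.

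The remaining genes of smallest p without overlap had no shared role that was listed here. On the lower side they were Arrdc2, an arrestin-like protein (-1.03 ± 0.28), the ceramide synthase Cers4 (-0.79 ± 0.22, and -0.49 without LPtau replicate 1), the Polycomb subunit Pcgf1 (-0.73 ± 0.17), Tbc1d13 (-0.54 ± 0.13), Tspan17 (-0.53 ± 0.16), Zfp934 (-0.52 ± 0.14), Nicn1 (-0.50 ± 0.12) and Yipf3 (-0.40 ± 0.12). Pcgf1 read 5.55, 5.64 and 5.70 in NP, 4.60, 4.86 and 5.23 in LPtau and 5.33, 4.90 and 4.98 in LP. Arrdc2 read 5.85, 5.59 and 6.57 in NP, 5.18, 4.43 and 5.30 in LPtau and 5.0, 5.37 and 4.95 in LP. Both were lower than NP in every LP array too. On the higher side the differences were smaller and the levels low, from 0.34 for the neuropeptide Grp to 0.54 for Extl1, with Celsr3, Plekhs1, Gnmt, Slc22a13, Bmp10 and Ssmem1 between them. Slc22a13 reached 6.04 in LPtau replicate 1 and the other 7 genes at most 5.41. Ranked by mean level among all genes, the 7 lay at percentiles 19.4 (Grp) to 36.4 (Gnmt), and Slc22a13 at 43.5.

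The same diet contrast was set against that in liver in a fit of all 24 arrays, and 0 of 18193 genes differed between the tissues at an adjusted p under 0.05 (0%), with 916 at an unadjusted p under 0.05 (5.03%) and a smallest adjusted p of 0.941. Mthfd2 was at 1.72 ± 0.40 in muscle and -0.23 ± 0.40 in liver, a difference of 1.95 ± 0.57 between the tissues, and Asns at 1.26 ± 0.30 and 0.13 ± 0.30, a difference of 1.13 ± 0.42. Cdkn3 was at -0.56 ± 0.19 in muscle and -0.75 ± 0.19 in liver, and Ccnb2 at -0.72 ± 0.22 and -0.24 ± 0.22. None of these tissue differences passed the threshold. Liver and muscle were normalized separately by the authors, per the labels, so only differences within a tissue were compared.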

How the data were processed

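Total RNA of newborn hindleg muscle was labelled with biotin and hybridised to single-channel Affymetrix mouse arrays, per the labels. What the authors deposited is log2 expression for each probe set. The submitters' processing notes name RMA and R 2.7.0 for it, and also MAS5 without its role. Muscle and liver were normalized separately, per the labels. All value columns were matched to samples, with 0 left over.

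Of 45101 probe sets, 34945 had 1 gene symbol in the platform annotation. Each of 18193 genes was represented by its brightest probe set, taken over the mean of the 12 muscle arrays, and 9010 genes had several. No filter on low values was applied. A limma 3.58.1 fit in R 4.3.3 (lmFit, contrasts.fit, eBayes) gave 1 mean to each of the 4 diets over the 12 muscle arrays, and p-values were adjusted over all genes (Benjamini-Hochberg) at a threshold of 0.05. Differences are log2 with limma's standard error. RMA shrinks differences of dim probe sets, and with 3 arrays a group only differences that are large against the spread can pass. For a single gene, an exact permutation of 3 and 3 arrays has a smallest two-sided p of 0.10.

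The 51 gene lists, the fixed genes and the comparison itself were chosen with earlier results of these data known, so list counts are descriptions and no set test was run. Genes were named as the 15 of smallest p in each direction without overlap of the groups, all genes past the threshold in LP against NP or LPtau against LP, up to 4 members of each list by p, and 24 fixed genes, of which Mstn had no usable probe set. Predicted genes were not named. Not every gene so chosen is printed, and others are marked in the text. The labels state no pairing by replicate number, and the main fit used none. Deviations of NP and LPtau arrays of the same number correlated at 0.0626, 0.282 and 0.144. Those of different numbers correlated at -0.1955 to 0.076. Whether arrays of the same number share an origin is not known, so the replicate block is given as an alternative. The procedure was tested on simulated data. Alternatives were other probe set rules, normalizations, a level filter, sex (read from Xist), array weights, moderation, the replicate block, the 6 arrays alone, and leaving out arrays. Promoters came from a RefSeq table of GRCm38.p6.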

Additional observations from a re-analysis of the deposited data

Results flagged for a closer look

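For 3 of the genes reported above, all LPtau arrays lay below all NP arrays in muscle and above all NP arrays in liver. The search covered only the 105 genes whose values were compared, many of them picked for no overlap in muscle. The share over all genes was not counted, so the 3 cannot be set against a background. The Golgi protein gene Yipf3 was at -0.40 in muscle and 0.18 in liver, a difference between the tissues of -0.58 ± 0.18. Pvalb was at -0.81 and 0.19, a difference of -1.0 ± 0.35. Actn3 was at -0.71 and 0.25, a difference of -0.97 ± 0.42. The tissue difference was tested in the limma fit of 24 arrays and had an adjusted p of 0.941 for each of the 3 genes, so none passed. Pvalb and Actn3 are muscle genes, and their levels in liver are not given here.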

How the results depend on the processing

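LPtau against NP gave 0 calls in all 21 alternatives, with a smallest adjusted p of 0.185 under array weights, and the tissue difference gave 0 in all its alternatives. Of 105 genes whose values were compared, 92 kept their direction in every alternative. Of 1020 values of list medians, 64 moved by more than the spread between replicates, in 22 of 51 lists. The count in LPtau against LP, 4, was 281 with array weights, 67 with cyclic loess, 56 with quantile normalization, 13 with the mean over probe sets, 8 among genes above the median level, 10 with trend and robust moderation, 0 to 75 when 1 array was left out and 36 without LPtau replicate 1 and LP replicate 1. The count in LP against NP, 23, was 789 with array weights, 65 with loess, 62 with quantile normalization, 38 with the mean over probe sets, 36 among genes above the median level, 7 over all probe sets, 5 with sex as a covariate, 2 to 126 when 1 array was left out and 293 without those 2 arrays. For LP against NP all of the alternatives were chosen after seeing the data. For LPtau against LP so were those other than loess, sex, the block and leaving out LPtau or NP arrays. The replicate number as a block gave 0 calls in LPtau against NP (652 at an unadjusted p under 0.05), 0 in LPtau against LP and 2 in LP against NP. NP replicates 2 and 3 correlated best with the LPtau array of the same number (0.282 and 0.144). NP replicate 1 correlated best with LPtau replicate 3 (0.076, against 0.0626 with LPtau replicate 1). The causes were not tested.

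Some small differences turned sign. Quantile and loess normalization gave 0.01 and 0.05 for Fxyd1, 0.04 and 0.07 for Mylip, 0.07 and 0.04 for Cyp27a1, 0.00 and 0.04 for Igf1r and 0.10 and 0.09 for Myh2. Array weights gave 0.09 for C1qtnf9, 0.05 for Myh8, 0.00 for Igf2, 0.06 for Myh2, -0.06 for Slc6a6, -0.27 for Myh1 and -0.14 for Myh7. The mean over probe sets gave 0.15 for Igf1r and -0.14 for Slc6a6, and median centring gave -0.03 for Slc6a6. Without LPtau replicate 1 and LP replicate 1 the values were 0.11 for C1qtnf9, 0.09 for Myh8, 0.02 for Igf2, 0.13 for Myh2, -0.12 for Slc6a6, -0.19 for Myh1 and -0.16 for Myh7.
Over the settings that leave out 1 array the values ran from -0.02 to 0.82 for Psat1, -0.59 to 0.19 for Chac1, -0.27 to 0.11 for C1qtnf9, -0.12 to 0.02 for Fxyd1, -0.10 to 0.00 for Mylip, -0.13 to 0.05 for Cyp27a1, -0.30 to 0.09 for Myh8, -0.34 to 0.04 for Igf1r, -0.11 to 0.02 for Igf2, -0.41 to 0.25 for Myh2, -0.12 to 0.08 for Slc6a6, -0.19 to 0.34 for Myh1 and -0.16 to 0.37 for Myh7.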

Other observations

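Interferon response genes stood a little lower in LPtau than in NP. Most were dim, and 6 of the 19 measured lay above the median level of all genes. Of 19 measured, 17 were negative, with a median of -0.27 (-0.22 without LPtau replicate 1), 2 had an unadjusted p under 0.05 in the lower direction (2.16% of all genes did) and 0 passed an adjusted p under 0.05 in limma. Ifi27l2a, an interferon-induced gene, read 7.31, 7.67 and 8.09 in NP, 6.94, 5.52 and 7.23 in LPtau and 6.20, 5.57 and 5.86 in LP. The list means were -0.40, -0.54 and -0.01 in LPtau, so that LPtau replicate 3 lay within the NP range of -0.15 to 0.12.

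Oxidative stress and heat shock genes leaned lower, less so without LPtau replicate 1, while activity and stretch genes had no common direction. Of 22 oxidative stress and heat shock genes 6 were positive, with a median of -0.11 (-0.03 without LPtau replicate 1), and of 25 activity, stretch and immediate early genes 11 were positive, with a median of -0.07. Within them, Hmox1, which degrades haem, read 8.36, 8.38 and 7.38 in NP and 5.76, 6.34 and 7.15 in LPtau, a difference of -1.62 ± 0.67. Ankrd1, a titin-associated protein of stretched muscle, was at -1.11 ± 0.47 and overlapped with NP. The hedgehog list, at a median of 0.36 in LP against NP, was at 0.06 in LPtau against NP. Genes of imprinted growth control had 13 of 14 negative and a median of -0.18, which was -0.04 without LPtau replicate 1.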
